A study of Mus musculus with 8 samples.

Results

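The cytosolic ribosomal proteins are the protein subunits of the 60S and 40S parts of the ribosome that translates nuclear mRNAs. Members were the protein-coding genes whose symbol is Rpl or Rps followed by a number and an optional letter suffix, with Rplp0, Rplp1, Rplp2 and Rpsa added and with the Rps6k kinases and symbols containing "-ps" left out. The rule gave 82 of the 46078 genes counted, 50 for the large 60S subunit and 32 for the small 40S subunit. As background, each ribosome holds a single copy of most of these proteins, and cells make them in matched amounts, mainly by control of translation. Many of their mRNAs begin with a terminal oligopyrimidine tract, a C followed by a run of C and T at the transcription start, through which the kinase complex mTORC1 sets how fast they are translated. In microglia, the macrophages of the brain, the inflammatory proteins made after activation are translated on these ribosomes.

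The study measured poly(A) RNA by RNA-Seq in BV-2 cells, a mouse microglial line immortalised with the oncogenes v-raf and v-myc and therefore a proliferating model of microglia. It asked whether aged garlic extract (AGE) and FruArg, an arginine and fructose conjugate found in that extract, counter the transcriptome change caused by the bacterial endotoxin lipopolysaccharide (LPS). There were 4 groups with 2 biological replicates each, all kept for 4 h in medium without serum. By the library names, lane 3 held replicate 1 of all groups and lane 6 held replicate 2, whose names also carry a tag that those of replicate 1 lack. Control cells received no LPS, AGE or FruArg. LPS cells received 100 ng/mL LPS from a rough Rd mutant of Escherichia coli for 20 h. AGE+LPS cells received 0.5% (v/v) AGE from 1 h before the same LPS dose, and FruArg+LPS cells received 3 mM FruArg from 1 h before it. LPS cells without a pretreatment and Control cells are therefore the references for the 5 comparisons made: LPS vs Control, AGE+LPS vs LPS, FruArg+LPS vs LPS, AGE+LPS vs Control and FruArg+LPS vs Control. These comparisons share libraries and are not independent of each other.

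Total counts assigned to genes were 2707500 and 8995052 in Control replicates 1 and 2. They were 8720784 and 12069807 in LPS, 6795464 and 6669072 in AGE+LPS, and 4692715 and 5822113 in FruArg+LPS. Control replicate 1 was the shallowest library, and a floor of 3 counts corresponded there to 1.11 CPM (the count scaled to a common library total) against 0.249 to 0.639 in the other 7 libraries. Floors and intervals cover counting error only. From here on CPM are relative to the effective library size after trimmed mean of M-values (TMM) scaling, which corrects for the composition of each library. The cell label was checked against markers: 11 of 12 microglia and macrophage markers had a mean above 1 CPM, with Adgre1 the most abundant at 1636 CPM and Tmem119 under that level at 0.312 CPM. Summed over the 12 markers, the level was 4010 and 4748 CPM in Control, 4193 and 4710 in LPS, 4247 and 4903 in AGE+LPS, and 5463 and 5507 in FruArg+LPS. On the library total, without TMM scaling, it was 4762 and 5640 CPM in Control, 3847 and 4246 in LPS, 4381 and 4852 in AGE+LPS, and 5078 and 4976 in FruArg+LPS. LPS was below the other groups on the unscaled values and overlapped Control and AGE+LPS on the scaled ones, and the part of this in the results below was not tested. Markers of neurons (5), astrocytes (4), oligodendrocytes (4), fibroblasts (4) and T and B cells (4) all had a mean below 1 CPM.

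Members took between 1.10% and 1.61% of all counts. Their share was 1.61% and 1.51% in Control replicates 1 and 2, 1.43% and 1.10% in LPS, 1.52% and 1.18% in AGE+LPS, and 1.55% and 1.23% in FruArg+LPS. Both LPS libraries lay below both Control libraries, and replicate 2 was the lower library in every group. The pretreated groups overlapped Control and LPS when lanes were ignored, but within each lane Control was highest, followed by FruArg+LPS, AGE+LPS and LPS. The group means were 1.56% ± 0.0755 (SD, n = 2) in Control, 1.27% ± 0.237 in LPS, 1.35% ± 0.236 in AGE+LPS and 1.39% ± 0.228 in FruArg+LPS. An exact two-sided permutation test of 2 against 2 libraries cannot give a p below 0.333, so none is reported. In bulk RNA, fewer cells of a type and less RNA per cell cannot be told apart.

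The order of those shares depended on the denominator. Relative to the effective library size after TMM scaling, members took 1.36% and 1.27% in Control, 1.56% and 1.22% in LPS, 1.47% and 1.19% in AGE+LPS, and 1.67% and 1.36% in FruArg+LPS. On that scale FruArg+LPS was highest in each lane, and LPS was above Control in lane 3 and below it in lane 6. Share of all counts by subunit followed the total: 60S members took 0.846% and 0.833% in Control, 0.724% and 0.578% in LPS, 0.804% and 0.645% in AGE+LPS, and 0.821% and 0.648% in FruArg+LPS. The 40S members took 0.767% and 0.673% in Control, 0.711% and 0.522% in LPS, 0.712% and 0.538% in AGE+LPS, and 0.728% and 0.579% in FruArg+LPS. All Control libraries were above all libraries of the other groups for 60S members, whereas for 40S members replicate 1 of each LPS-treated group exceeded Control replicate 2. The 5 members with the most counts held between 49.9% and 53.6% of member counts in each library. Pseudogenes of ribosomal proteins, whose reads can come from the parent genes, took 0.276% and 0.239% in Control, 0.201% and 0.157% in LPS, 0.242% and 0.170% in AGE+LPS, and 0.229% and 0.179% in FruArg+LPS.

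**Figure D1:**
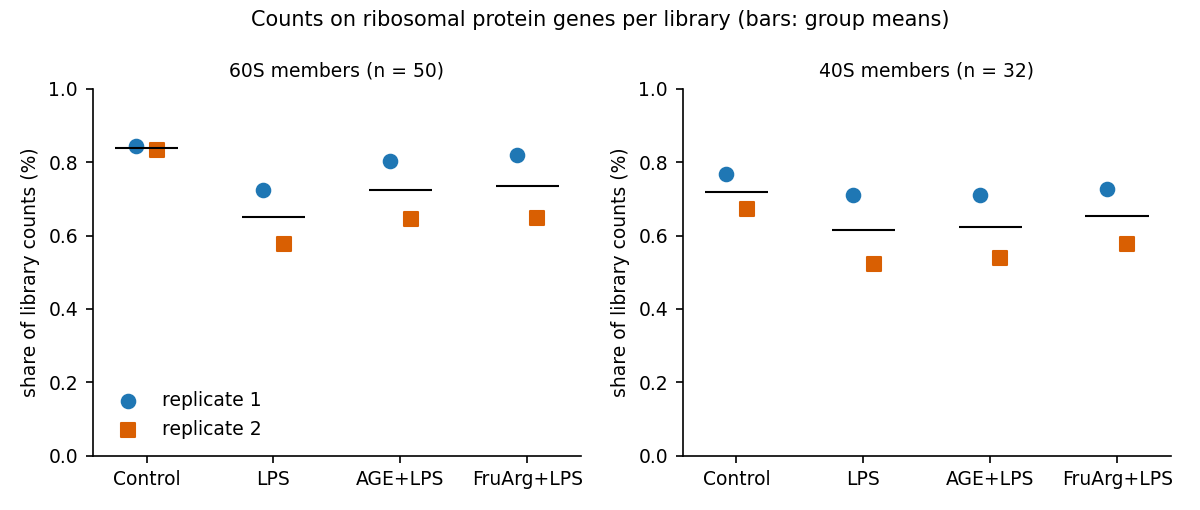
Percent of each library's counts on the ribosomal protein genes, by subunit and library, for 4 groups of 2 replicates. Bars are group means; the 60S share is highest in Control, at 0.846% and 0.833%, and replicate 2 is the lower point of every group for both subunits.

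Levels between genes were compared as CPM per kb of annotated exon, averaged over the 8 libraries. The median member had 23.4 CPM per kb, with 20.9 for 60S members and 28.8 for 40S members. Among the highest were Rplp1 with 1438 CPM per kb, Rpl8 with 1159, Rplp0 with 658 and Rps3 with 407. Rplp0 and Rplp1 belong to the stalk that recruits elongation factors, Rpl8 lies close to the peptidyl transferase centre and Rps3 sits at the mRNA entry channel. The lowest were Rpl3l with 1.56 CPM per kb, Rpl24 with 1.38, Rps28 with 1.12, Rpl28 with 0.964 and Rpl10l with 0. Rpl3l is the muscle paralog of Rpl3 and Rpl10l the testis retrogene of X-linked Rpl10, while Rpl24, Rps28 and Rpl28 are ordinary ribosome subunits. Counts were present in every library for 81 members. Rpl10l had 0 counts in all 8 libraries.

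Levels in each library follow for Rpl8 and Rps3, which were among the highest members. Rpl8 had 1730 and 1618 CPM in Control, 1908 and 1264 in LPS, 1656 and 1227 in AGE+LPS, and 1784 and 1411 in FruArg+LPS. Its groups overlapped throughout. Rps3 had 1894 and 1701 CPM in Control, 2057 and 1622 in LPS, 1988 and 1552 in AGE+LPS, and 1908 and 1868 in FruArg+LPS. These too overlapped, with replicate 2 lower in each group.

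Sequence shared with other genes limits what these levels mean. Each member's transcripts were split into windows of 100 bases, and a window counted as shared if it occurred with at most 2 mismatches in a transcript of another annotated gene. The median member shared 51.7% of its windows, 42 of 82 shared over 50% and 7 shared over 90%. Rpl39l and Rpl3l were among the 3 members that shared none, and Rps3 (1.82%), Rpl8 (1.95%), Rps27l (5.50%), Rps15a (6.06%) and Rps20 (6.93%) shared few. In contrast, Rplp0 shared 67.4%, Rplp1 77.5%, Rpl13 78.9%, Rpl24 80.1%, Rpl23a 80.7%, Rps6 83.6%, Rpl10 84.7%, Rpl36a 86.5%, Rps13 86.9% and Rps27rt 90.2%. How the counting treated reads that fit several genes is not given in the sources used here, so levels and differences of these members are uncertain. The 9 members sharing at most 10% of windows had a median of 85.8 CPM per kb of mRNA and held 42.1% of member counts. The 31 members from 10% to 50% had a median of 66.6, the 35 from 50% to 90% had 53.8, and the 7 above 90% had 15.1. Across the 82 members, Spearman's rho between the shared percentage and CPM per kb of mRNA was -0.24, a description only, since genes are not independent replicates. Some members also overlap other genes: Rpl23a and Tlcd1 overlap on opposite strands by 506 bases of exon, Rpl28 and Ube2s by 183 and Rps28 and Kank3 by 88, and whether counting used strand is not given in the sources used here. Rpl24 shares 484 bases with Gm28037 on its own strand.

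**Figure D2:**
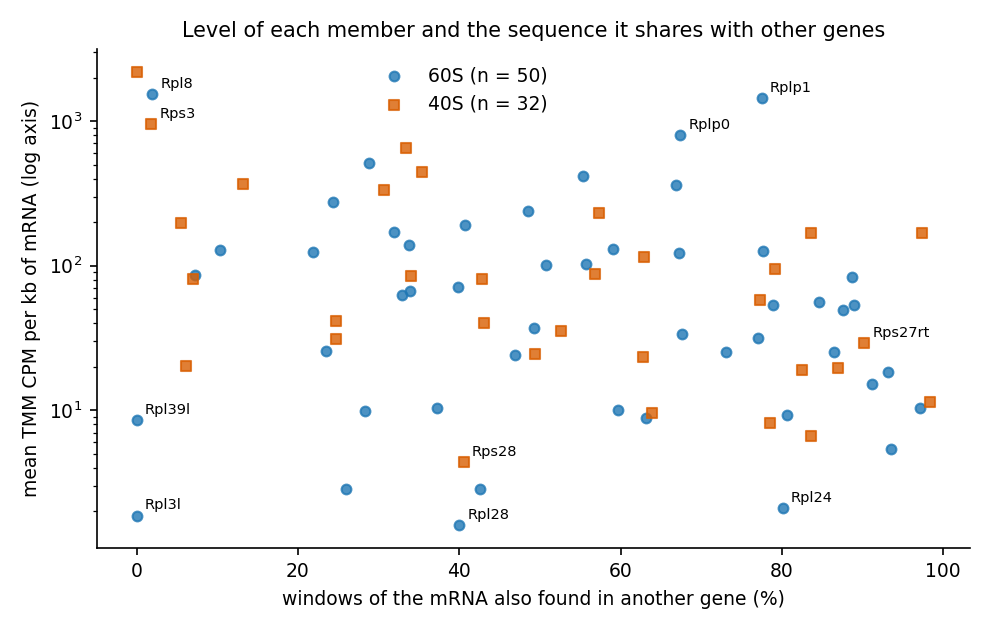
Mean CPM per kb of mRNA (log scale) against the percent of 100-base windows that each member shares with transcripts of other genes, for the 81 members with counts; Rpl10l, at 0, is not drawn. Members sharing at most 10% have a median of 85.8 and those above 90% a median of 15.1.

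RefSeq promoter windows (GRCm38.p6) were matched for 62 members. A run of at least 5 bases that began at a listed start with C and went on with C or T only, read on the transcribed strand, was present in 14 of them (22.6%), against 813 of 27025 promoters of all genes (3.01%). Within 5 bases of the start, such a run was found for 29 members (46.8%) and 5718 promoters (21.2%). The windows below run from 10 bases before the start to 20 bases from it, 5′ to 3′ on the transcribed strand, with the run in capitals. The first 5 are members with a run: Rpl38 (chr11:114668570-114668599, + strand), Rps15a (chr7:118116128-118116157, - strand), Rps6 (chr4:86857348-86857377, - strand), Rplp2 (chr7:141447641-141447670, + strand) and Rps27rt (chr9:114982720-114982749, - strand). The other 4 are paralogs without one at the listed start: Rps27l (chr9:66946076-66946105, + strand), Rpl39l (chr16:10170218-10170247, + strand), Rpl36a (chrX:134585644-134585673, + strand) and Rpl36al (chr12:69184048-69184077, - strand). Of these, Rps27l has a run of 5 bases within 5 bases of the start.
Rpl38: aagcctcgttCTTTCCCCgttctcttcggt
Rps15a: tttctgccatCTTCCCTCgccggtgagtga
Rps6: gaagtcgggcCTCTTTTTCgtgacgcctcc
Rplp2: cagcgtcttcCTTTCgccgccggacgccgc
Rps27rt: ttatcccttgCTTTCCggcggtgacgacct
Rps27l: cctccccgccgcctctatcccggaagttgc
Rpl39l: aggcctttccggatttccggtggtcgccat
Rpl36a: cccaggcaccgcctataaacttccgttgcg
Rpl36al: ccgtcgctcaggttcagttccgacttccgc

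The run did not sort members by their response in a fixed direction. For the 14 members with a run, the median log2 fold change (log2FC) was 0.08 in LPS vs Control against -0.08 for matched members without it, and -0.04 against 0.06 in AGE+LPS vs LPS. It was 0.17 against 0.13 in FruArg+LPS vs LPS, -0.13 against 0.00 in AGE+LPS vs Control, and -0.20 against 0.13 in FruArg+LPS vs Control. A match is a description of the listed start, and the starts used in BV-2 cells were not measured.

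In the LPS-treated groups members leaned towards lower values in replicate 2. The median member's log2 difference, replicate 2 minus replicate 1, was 0.04 in Control, -0.10 in LPS, -0.33 in AGE+LPS and -0.27 in FruArg+LPS, whereas the median over 12873 genes lay between -0.02 and 0.02. In all 4 groups 27 of 81 members were lower in replicate 2 and 15 were higher, against 18.7% and 20.6% of all genes. Rps16, Rpl38 and Rps20 were among those lower in replicate 2, and Rpl13, Rps15a and Rps27rt among those higher. Replicate number coincides with lane and with the tag in the library names, so these cannot be told apart. A fit that leaves out 1 library, used below, leaves a group in a single lane. A member's lane difference therefore enters its log2FC and its call in such a fit. Across 81 members, Spearman's rho between gene GC content and the mean replicate difference was -0.34.

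Among the alternative paralogs, Rpl39l differed most between groups. It encodes the paralog of the exit-tunnel protein Rpl39 that is best known from testis, lies at chr16:10170226-10174911 (GRCm38, + strand) and shares no window with another gene. Rpl39l had 1.24 and 1.59 CPM in Control, 11.6 and 15.7 in LPS, 3.57 and 4.55 in AGE+LPS, and 8.94 and 7.98 in FruArg+LPS. No groups overlapped: Control was lowest, then AGE+LPS, then FruArg+LPS, and LPS was highest, with Control replicate 1 just above its floor. The difference of FruArg+LPS from LPS was not called by edgeR or in any of 15 alternatives (log2FC from -0.903 to -0.43).

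Rps27l, the p53-inducible paralog of Rps27 (chr9:66946086-66949516, + strand), had 115 and 128 CPM in Control, 62.0 and 81.9 in LPS, 109 and 129 in AGE+LPS, and 72.7 and 87.5 in FruArg+LPS. Both LPS and both FruArg+LPS libraries were below every Control and AGE+LPS library, and LPS overlapped FruArg+LPS. Rps27rt, a retrogene copy of Rps27 (chr9:114982366-114982739, - strand), had 1.87 and 22.9 CPM in Control, 3.50 and 24.7 in LPS, 1.85 and 15.0 in AGE+LPS, and 0.229 and 16.7 in FruArg+LPS. Every replicate 2 library was far above every replicate 1 library, FruArg+LPS replicate 1 was under the floor of 3 counts, and the groups overlapped throughout. Rps27rt shares 90.2% of its windows with other genes, so its reads may come from them.

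Rpl36al and Rpl36a are near-identical 60S proteins that lie close to the exit site of the tRNA. Rpl36al (chr12:69182731-69184083, - strand) had 123 and 96.3 CPM in Control, 156 and 108 in LPS, 217 and 115 in AGE+LPS, and 282 and 171 in FruArg+LPS. Both FruArg+LPS libraries were above the Control and LPS libraries, while LPS and AGE+LPS overlapped Control. X-linked Rpl36a (chrX:134585654-134588062, + strand) had 11.2 and 14.3 CPM in Control, 6.0 and 6.71 in LPS, 14.1 and 11.5 in AGE+LPS, and 23.4 and 10.5 in FruArg+LPS. Its LPS libraries were below the other 6, which overlapped each other. Rpl3l, the muscle paralog, stayed between 0.827 CPM in LPS replicate 2 and 4.81 CPM in FruArg+LPS replicate 1 and was not called by edgeR in the 5 comparisons, although AGE+LPS vs LPS reached an adjusted p of 0.0495 when a trend with gene length was removed and libraries were compared within a lane.

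The stalk proteins and the receptor-like Rpsa gave 0 edgeR calls in the 5 comparisons. At an unadjusted p below 0.05 there were 1 of 4 in LPS vs Control, AGE+LPS vs LPS and AGE+LPS vs Control, 2 in FruArg+LPS vs LPS and 3 in FruArg+LPS vs Control. Of all genes, 41.4%, 17.8%, 31.6%, 12.8% and 35.8% had such a p in these comparisons in this order. When the fit blocked on replicate number, so that libraries were compared within a lane (the replicate block), 2, 2, 1, 2 and 3 of the 4 were called, against 47.8%, 40.3%, 38.8%, 17.6% and 34.4% of genes. DESeq2 called Rpsa in FruArg+LPS vs LPS (1.76% of genes) and Rplp1 in FruArg+LPS vs Control (21.4%). Rplp0, the base of the stalk, had 1060 and 934 CPM in Control, 1270 and 831 in LPS, 1249 and 948 in AGE+LPS, and 1355 and 1081 in FruArg+LPS. Replicate 2 was lower in each group. Only FruArg+LPS had each library above every Control library, by a log2FC of 0.31 that turned to -0.08 with library size scaling. Within each lane AGE+LPS was above Control as well. Rplp1, an acidic stalk protein, had 581 and 514 CPM in Control, 697 and 435 in LPS, 876 and 473 in AGE+LPS, and 1425 and 738 in FruArg+LPS. Both FruArg+LPS libraries were above those of Control and LPS. Rplp2, its partner in the stalk, had 152 and 132 CPM in Control, 220 and 161 in LPS, 229 and 183 in AGE+LPS, and 218 and 175 in FruArg+LPS. All 6 LPS-treated libraries were above both Control libraries and overlapped each other.

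Rpsa, a 40S protein also known as the laminin receptor (chr9:120127689-120132369, + strand), had 69.4 and 75.1 CPM in Control, 50.9 and 48.6 in LPS, 84.3 and 64.5 in AGE+LPS, and 143 and 82.1 in FruArg+LPS. The LPS libraries were below the other 6, and both FruArg+LPS libraries were above Control. With the replicate block its edgeR adjusted p was 0.0111 for LPS vs Control, 1.36e-05 for AGE+LPS vs LPS, 6.69e-06 for FruArg+LPS vs LPS and 0.0299 for FruArg+LPS vs Control. Without the block the values were 0.0850, 0.244, 0.216 and 0.121, and over all alternatives they ranged from 0.00643 to 0.459, from 9.37e-06 to 0.827, from 6.69e-06 to 0.842 and from 0.000191 to 0.520. Leaving out FruArg+LPS replicate 2 gave a call in both FruArg+LPS comparisons, with log2FC 1.53 against LPS and 1.00 against Control.

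Of the other 60S members, Rpl38, known for its part in translating Hox mRNAs (chr11:114668524-114672331, + strand), had 67.2 and 47.6 CPM in Control, 61.2 and 39.8 in LPS, 102 and 43.5 in AGE+LPS, and 191 and 73.0 in FruArg+LPS. Both FruArg+LPS libraries exceeded all Control and LPS libraries, and replicate 1 was higher in each group. Rpl13 had 32.97 and 75.2 CPM in Control, 36.7 and 67.4 in LPS, 23.7 and 51.4 in AGE+LPS, and 17.0 and 30.8 in FruArg+LPS. It ran the other way, with replicate 2 higher in each group and both FruArg+LPS libraries below those of Control and LPS.

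Rpl10, which joins the 60S subunit late in its maturation, had 41.1 and 54.9 CPM in Control, 53.6 and 63.7 in LPS, 28.0 and 39.5 in AGE+LPS, and 55.0 and 50.6 in FruArg+LPS. The AGE+LPS libraries were below the other 6. Rpl23a, at the exit of the peptide tunnel, had 7.78 and 7.86 CPM in Control, 2.87 and 4.14 in LPS, 4.28 and 3.18 in AGE+LPS, and 7.56 and 3.61 in FruArg+LPS. Both Control libraries were above the other 6, which overlapped each other.

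Of the 40S members, Rps15a had 88.7 and 141 CPM in Control, 102 and 181 in LPS, 64.5 and 128 in AGE+LPS, and 44.2 and 88.0 in FruArg+LPS. Its FruArg+LPS libraries were below those of Control and LPS by a narrow margin for Control.

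Rps16, whose tail contacts the tRNA in the decoding site, had 92.4 and 39.96 CPM in Control, 110 and 32.8 in LPS, 139 and 36.7 in AGE+LPS, and 194 and 111 in FruArg+LPS. Replicate 1 was higher in each group, and FruArg+LPS was above Control and LPS in both libraries. Rps20, in the head of the 40S subunit, had 235 and 172 CPM in Control, 339 and 221 in LPS, 349 and 195 in AGE+LPS, and 624 and 276 in FruArg+LPS. Here FruArg+LPS was above Control but overlapped LPS when lanes were ignored. With the replicate block Rps20 was called in FruArg+LPS vs LPS (log2FC 0.61, edgeR adjusted p 0.0134). Rps7, a 40S protein that also binds Mdm2, had 108 and 85.9 CPM in Control, 193 and 76.5 in LPS, 124 and 75.9 in AGE+LPS, and 89.2 and 120 in FruArg+LPS. Its groups overlapped in all 5 comparisons when lanes were ignored. With the replicate block Rps7 was called in AGE+LPS vs LPS (log2FC -0.342, edgeR adjusted p 0.00672).

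Rps6, the substrate of the ribosomal S6 kinases (chr4:86854660-86857412, - strand), had 8.40 and 7.39 CPM in Control, 3.37 and 3.12 in LPS, 6.70 and 3.79 in AGE+LPS, and 6.42 and 7.60 in FruArg+LPS. Both LPS libraries were below the other 6. Rps29, a small zinc-binding protein of the 40S head (chr12:69157722-69159186, - strand), had 16.2 and 11.3 CPM in Control, 7.50 and 4.60 in LPS, 12.13 and 7.12 in AGE+LPS, and 25.4 and 11.98 in FruArg+LPS. The LPS libraries were below those of Control and FruArg+LPS and overlapped AGE+LPS. With the replicate block Rps29 was called in AGE+LPS vs LPS (log2FC 0.667, edgeR adjusted p 0.0224). Rps13 had 9.64 and 12.7 CPM in Control, 6.50 and 7.996 in LPS, 13.6 and 9.85 in AGE+LPS, and 19.9 and 12.4 in FruArg+LPS. For Rps13 as well, LPS was below the other 6 libraries.

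**Figure D3:**
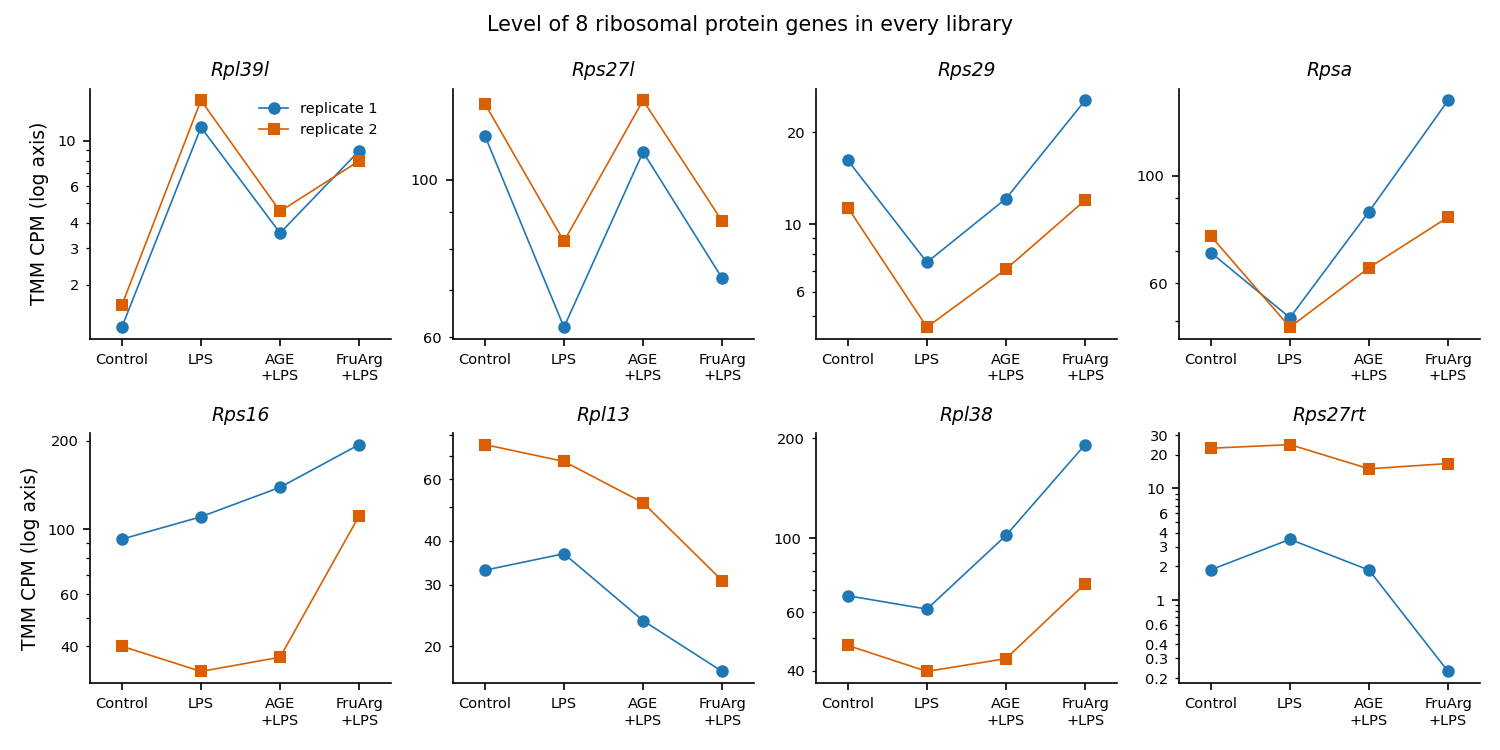
Normalised CPM (log scale) of single members in the 8 libraries, with lines joining libraries of the same replicate number. Rpl39l runs from 1.24 CPM in Control replicate 1 to 15.7 in LPS replicate 2, and Rps16 is highest in FruArg+LPS at 194 and 111; Rps27rt in FruArg+LPS replicate 1 is under the floor of 3 counts.

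LPS vs Control asked what endotoxin alone did to the members. Rpl39l rose, with a log2FC of 3.23 ± 0.40 (SE, n = 2 libraries per group). Rps6 (-1.23 ± 0.37), Rps29 (-1.13 ± 0.36), Rpl36a (-0.99 ± 0.31) and Rps27l (-0.72 ± 0.22) fell. No other of the 81 members tested passed an edgeR adjusted p below 0.05. That made 1 member up-regulated where 16.3% of 12888 genes were, and 4 down-regulated where 14.3% of genes were. At 2-fold or more, 3 members and 22.6% of genes were called. The median log2FC was -0.04 for members and 0.02 for all genes, with 37 members positive and 44 negative; when a trend with GC content was removed (the GC trend) the members' median was 0.01, with 41 positive and 40 negative. In the main fit it was -0.08 for 60S members and 0.09 for 40S members, the latter turning to -0.34 with library size scaling. Libraries of the groups did not overlap for 29 members, 6 higher and 23 lower in LPS, against 66.1% of genes.

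The Rpl39l call had an edgeR adjusted p of 0.000354, and the 14 alternatives that tested it all kept the call, with values from 5.59e-17 to 0.000782. Within lanes its log2 difference was 2.80 in lane 3 and 2.96 in lane 6. Each of the 4 down-regulated members lost its call without some of the libraries. Rps6 had an adjusted p of 0.0324 (0.00197 to 0.153 over alternatives) and lost the call without Control replicate 1 (log2FC -1.15), Control replicate 2 (-1.35) or LPS replicate 2 (-1.16). Rps29, at 0.0408 (0.000194 to 0.212), lost it without Control replicate 1 (-0.88) or LPS replicate 2 (-0.79). For Rpl36a, at 0.0370 (0.00255 to 0.327), the call was lost without Control replicate 1 (-1.13), Control replicate 2 (-0.80) or LPS replicate 1 (-0.91). Rps27l, at 0.0305 (1.62e-05 to 0.231), lost it without Control replicate 1 (-0.80), Control replicate 2 (-0.66) or LPS replicate 1 (-0.53). Their differences within lanes 3 and 6 were -1.20 and -1.12 for Rps6, -1.06 and -1.21 for Rps29, -0.85 and -1.04 for Rpl36a, and -0.89 and -0.64 for Rps27l. Rps6, Rps29 and Rpl36a did not pass in DESeq2, at 0.0746, 0.0520 and 0.0837. With the 4 groups in one edgeR fit, Rps29 (log2FC -1.17) and Rpl36a (-1.02) did not pass either, at 0.0866 and 0.0808. Rpl23a, with log2FC -1.11 ± 0.38, missed the threshold at 0.0523 (0.00598 to 0.219) and passed with the replicate block at 0.00959 and without LPS replicate 2 (log2FC -1.40).

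Among members on the positive side, Rps7 had log2FC 0.51 ± 0.37 and Rps20 0.49 ± 0.26, and neither passed, with edgeR adjusted p of 0.330 and 0.187. Their ranges over alternatives were 0.00046 to 0.859 and 0.00103 to 0.843, and both were called without LPS replicate 2, at 1.04 and 0.78, while with the replicate block Rps20 passed at 0.0084 and Rps7 did not at 0.0976. Rps27rt had 0.10 ± 0.87 (-0.33 with library size scaling) and no call. Its log2FC was 2.95 without Control replicate 2 and -1.96 without LPS replicate 2, fits that its lane difference enters. Within both lanes LPS was above Control for Rps27rt, at 3.50 against 1.87 CPM and 24.7 against 22.9 CPM. With the replicate block, 4 members were higher (24.9% of genes) and 11 lower (22.9% of genes), and DESeq2 called 2 members where it called 26.9% of genes. Leaving out 1 library gave 2 higher and 0 lower without Control replicate 1 (10.3% and 9.10% of genes), 2 and 1 without Control replicate 2 (9.79% and 8.80%), 4 and 5 without LPS replicate 1 (18.6% and 15.99%), and 7 and 8 without LPS replicate 2 (17.5% and 14.5%). The members' median was 0.05 in lane 3 and -0.23 in lane 6, and became -0.22 without LPS replicate 1 and 0.07 without LPS replicate 2. Scaling mattered as well: library size scaling moved the median of all genes to -0.40, the members' median to -0.47 and the calls to 1 higher and 16 lower (9.59% and 28.7% of genes), with 75 of 81 members negative.

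AGE+LPS vs LPS asked whether the extract countered the effect of endotoxin. Rpl39l had the most negative log2FC, -1.75 ± 0.34, and Rpl10 (-0.80 ± 0.25) and Rps27rt (-0.77 ± 1.03) followed. Rpl36a (1.01 ± 0.30), Rps27l (0.73 ± 0.23) and Rps13 (0.69 ± 0.32) had the most positive values among members with a mean of at least 5 CPM. None of the 80 members tested passed edgeR's adjusted p below 0.05 in either direction, while 0.292% of 12317 genes were higher and 0.503% lower. At 2-fold or more it was 0 members and 0.796% of genes. At an unadjusted p below 0.05 there were 5 members and 17.8% of genes, and DESeq2 called 1 member (Rpl39l) where it called 5.21% of genes. The median was 0.01 for members and -0.00 for all genes, with 40 members on each side of 0; without LPS replicate 1 or AGE+LPS replicate 2 the members' median was 0.14 or 0.15, and without AGE+LPS replicate 1 it was -0.14. For 19 members the groups did not overlap, 14 higher and 5 lower, against 47.3% of genes.

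Comparing within lanes gave many more calls for AGE+LPS vs LPS. With the replicate block 15 members were higher (19.3% of genes) and 13 lower (21.0% of genes), shares near those of all genes. Rpl39l had an edgeR adjusted p of 0.0637 without the block and 2.46e-09 with it, within a range of 2.32e-11 to 0.0710, and log2 differences of -1.58 in lane 3 and -1.68 in lane 6. It was also called without LPS replicate 1 (-1.95) and without AGE+LPS replicate 2 (-1.93). Rpl10 went from 0.168 to 3.75e-08 with the block (7.92e-10 to 0.653 over alternatives), with -0.93 and -0.68 within the lanes. The block took Rps27l from 0.165 to 2.99e-09 (2.89e-12 to 0.478), with 0.81 and 0.66 within lanes. For Rpl36a it went from 0.145 to 0.000136 (7.31e-05 to 0.515) with 1.17 and 0.74, and for Rps13 from 0.323 to 0.0118 (0.00715 to 0.858) with 1.01 and 0.28. Rps27rt went from 0.766 to 0.00416, with log2FC -1.56 without LPS replicate 1 and -2.93 without AGE+LPS replicate 2. Over alternatives the log2FC of Rps27rt ranged from -2.93 to 1.26, and leaving out 1 library lets its lane difference enter that value. Between lanes its libraries differed by log2 2.66 to 4.56 in every group. Within both lanes AGE+LPS was below LPS, at 1.85 against 3.50 CPM and 15.0 against 24.7 CPM. Without LPS replicate 1 there were 1 higher and 3 lower members (2.16% and 2.94% of genes), and without AGE+LPS replicate 2 there were 0 and 3 (2.16% and 2.55%). Library size scaling moved the median of all genes to 0.15 and that of members to 0.16, with 57 members positive and 23 negative. Within both lanes the members' median was 0.01.

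FruArg+LPS vs LPS put the same question for the single compound. Rpl13 (-1.12 ± 0.39) and Rps15a (-1.09 ± 0.38) were among the members with the most negative log2FC. Rps29 (1.64 ± 0.46), Rpl36a (1.41 ± 0.45) and Rpl38 (1.40 ± 0.43) had the most positive. Although 18 of the 81 members tested and 12.8% of genes had an unadjusted p below 0.05, edgeR called 0 higher and 0 lower, as it did among all 12071 genes (0% and 0%, and 0% at 2-fold or more). DESeq2 called 3 members, Rpl38 and Rpsa higher among them, with 1.76% of genes called. The members' median was 0.13 against -0.01 for all genes, with 52 positive and 29 negative, but it was -0.02 without LPS replicate 2, -0.01 without FruArg+LPS replicate 1, 0.26 without LPS replicate 1 and 0.31 without FruArg+LPS replicate 2. With the GC trend it was 0.04, with 43 members positive and 38 negative, and with GC trend and block 0.02. The groups did not overlap for 28 members, 19 higher and 9 lower, against 47.2% of genes.

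With the replicate block, FruArg+LPS vs LPS gave 15 higher members (8.23% of genes) and 7 lower (9.36% of genes). Rpl13 went from an edgeR adjusted p of 0.311 to 5.79e-05 (4.15e-05 to 0.999), with -1.09 and -1.12 within lanes, and was called without LPS replicate 1 (-1.5) or FruArg+LPS replicate 2 (-1.62). Rps15a went from 0.311 to 3.56e-06 (up to 0.999), with -1.20 and -1.03, and was called without LPS replicate 1 (-1.45) or FruArg+LPS replicate 2 (-1.68). On the positive side the block took Rps29 from 0.260 to 0.000199 (up to 0.780), Rpl36a from 0.286 to 0.00388 (0.0012 to 1) and Rpl38 from 0.278 to 5.04e-07 (up to 1). These 3 were called without FruArg+LPS replicate 2, at 2.08, 1.87 and 1.92, and Rpl38 without LPS replicate 1 as well, at 1.71. Rplp1, at 0.94 ± 0.36, went from 0.351 to 0.000366 (up to 1), and Rpl36al, at 0.78 ± 0.31, from 0.354 to 0.000729 (up to 1). Both were called without FruArg+LPS replicate 2, at 1.33 and 1.09. Without that library 12 members were higher and 5 lower (4.92% and 6.89% of genes), without LPS replicate 1 the counts were 2 and 4 (0.495% and 1.11%), and without FruArg+LPS replicate 1 they were 0 and 1 (0.209% and 0.233%). Testing every gene with at least 1 count gave 8 higher and 4 lower members (1.10% and 1.43% of 21303 genes). The members' median was 0.12 in lane 3 and 0.09 in lane 6.

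AGE+LPS vs Control asked how far cells given extract and endotoxin differed from untreated cells. Rpl36al (0.62 ± 0.30), Rplp2 (0.55 ± 0.21) and Rps16 (0.45 ± 0.56) were the named members on the positive side. Rpl23a (-1.04 ± 0.37) and Rps27rt (-0.69 ± 0.92) were on the negative side. Rpl39l, too low for the naming rule in this pair, had 1.47 ± 0.48. In edgeR 0 of 81 members were higher, where 10.5% of 12449 genes were, and 0 were lower, where 9.25% were. At 2-fold or more it was 0 members and 15.0% of genes, and DESeq2 called 0 members where it called 17.9% of genes. An unadjusted p below 0.05 was reached by 3 members and 31.6% of genes. The median was -0.01 for members and 0.01 for all genes, with 36 positive and 45 negative. The groups did not overlap for 19 members, 6 higher and 13 lower, against 59.0% of genes.

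The replicate block gave 4 higher members (20.2% of genes) and 7 lower (18.5% of genes) for AGE+LPS vs Control. Rpl23a went from an edgeR adjusted p of 0.0834 to 0.0118 (0.00529 to 0.364 over alternatives), Rpl39l from 0.0646 to 0.0126 (0.00787 to 0.284) and Rplp2 from 0.0960 to 0.00205 (1.3e-06 to 0.571). Rpl36al went from 0.191 to 0.00323 (1.06e-05 to 0.824). Rps16 had 0.633, or 0.221 with the block (2.89e-05 to 0.961), and its direction depended on single libraries: leaving out Control replicate 1 gave 1.16, AGE+LPS replicate 2 gave 1.14 and AGE+LPS replicate 1 gave -0.79, all called. Without AGE+LPS replicate 2, calls were also made for Rpl36al (1.03), Rplp2 (0.72) and Rps27rt (-2.87). Without Control replicate 1 Rps27rt had a log2FC of -1.42. Over alternatives the log2FC of Rps27rt ranged from -2.87 to 2.16, and leaving out 1 library lets its lane difference enter that value. AGE+LPS and Control had 1.85 and 1.87 CPM in lane 3, and 15.0 and 22.9 CPM in lane 6. Counts of members higher and lower were 8 and 6 without AGE+LPS replicate 2 (14.2% and 11.6% of genes), 0 and 4 if replicate 1 of that group was left out (13.0% and 11.2%), and 1 and 2 without Control replicate 1 (7.47% and 6.72%). The members' median was 0.07 in lane 3 and -0.17 in lane 6. Library size scaling moved the median of all genes to -0.24 and that of members to -0.26, with 69 of 81 members negative, and the members' median was -0.16 without AGE+LPS replicate 1 and 0.03 if replicate 2 of that group was left out.

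Without the replicate block, FruArg+LPS vs Control gave the most edgeR member calls outside LPS vs Control. With the block it gave 17, against 28 in AGE+LPS vs LPS and 22 in FruArg+LPS vs LPS. Rpl39l (2.54 ± 0.52) and Rpl36al (1.07 ± 0.27) rose. Those 2 were the up-regulated members among 80 tested, where 12.8% of 12038 genes were up-regulated, and 1 member was down-regulated, where 9.59% of genes were. All 3 passed the 2-fold minimum, as did 17.4% of genes. Rps16 (1.25 ± 0.41), Rpl38 (1.23 ± 0.41) and Rps20 (1.17 ± 0.37), and on the other side Rpl13 (-1.17 ± 0.42) and Rps15a (-0.78 ± 0.35), did not pass. The members' median of 0.12 turned to -0.28 with library size scaling and to -0.01 without Control replicate 2 or FruArg+LPS replicate 1, and it was 0.00 for all genes, with 43 members positive and 37 negative. With the GC trend the members' median was 0.07, and without FruArg+LPS replicate 2 it was 0.20. The groups did not overlap for 37 members, 22 higher and 15 lower, against 63.6% of genes.

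Rpl39l, at an edgeR adjusted p of 0.0103 (0.000369 to 0.0703), had 2.44 and 2.02 within lanes and lost the call without Control replicate 1 (2.40) or Control replicate 2 (2.73). Rpl36al, at 0.0247 (6.06e-08 to 0.0921), had 1.20 and 0.82 within lanes and lost the call without Control replicate 2 (0.88), with library size scaling (0.68) and with the 4 groups in one fit. With the replicate block 11 members were higher (18.9% of genes) and 6 lower (15.5% of genes), and DESeq2 called 8 members, 6 higher and 2 lower, with 21.4% of genes called. The block took Rps16 from 0.0633 to 1.87e-05 (6.83e-09 to 0.242), Rpl38 from 0.0681 to 0.000514 (4.08e-11 to 0.187) and Rps20 from 0.0537 to 0.00023 (3.75e-10 to 0.139). It took Rplp1, at 1.01 ± 0.31, from 0.0504 to 0.00135 (4.4e-07 to 0.166), Rpl13 from 0.0848 to 0.000836 (3.16e-07 to 0.641) and Rps15a from 0.149 to 0.00174 (6.38e-06 to 0.593).

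Counts in FruArg+LPS vs Control depended on which library, and so which lane, was left out, for members as for all genes. Without FruArg+LPS replicate 2, 23 members were higher and 10 lower (19.87% and 19.98% of genes), among them Rps16 (1.61), Rpl38 (1.77), Rps20 (1.64), Rplp1 (1.40), Rpl13 (-1.70) and Rps15a (-1.37). Without Control replicate 1 the counts were 5 and 3 (8.20% and 5.99% of genes), with Rps16 (1.93), Rpl38 (1.47), Rps20 (1.39), Rplp1 (1.08), Rpl13 (-1.65) and Rps15a (-1.09) called. Without FruArg+LPS replicate 1 they were 3 and 4 (16.8% and 13.9%), with Rps16 (0.82) and Rpl13 (-0.82) called, and without Control replicate 2 they were 1 and 1 (7.14% and 4.79%). The members' median was 0.14 in lane 3 and -0.05 in lane 6. Library size scaling moved the median of all genes to -0.40, and left 1 member higher and 12 lower (7.61% and 21.98% of genes), with 57 of 80 members negative.

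**Figure D4:**
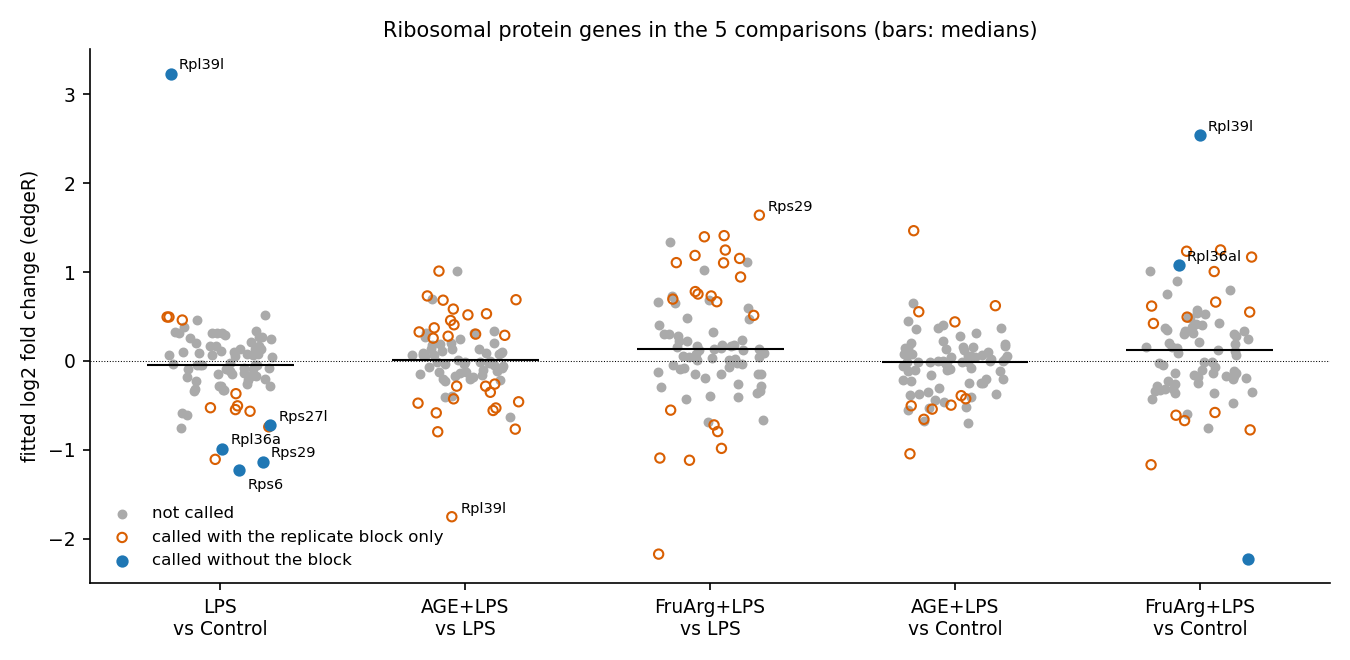
Fitted log2 fold change of every member tested in the 5 comparisons, with members called by edgeR filled and those called with the replicate block only as open circles; bars are medians. Calls are 1 higher and 4 lower in LPS vs Control, 2 higher and 1 lower in FruArg+LPS vs Control, and 0 in the other 3 comparisons.

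Untested members were few. Rpl10l, with 0 counts, was not tested in any comparison. On the library total, without TMM scaling, 0 counts in the deepest library allow a level of up to 0.249 CPM. Rpl24, which forms a bridge between the subunits, was too low to be tested in AGE+LPS vs LPS and FruArg+LPS vs Control. It had 2.18 and 1.59 CPM in Control, 0.750 and 1.29 in LPS, 0.856 and 1.36 in AGE+LPS, and 1.61 and 1.71 in FruArg+LPS. All Control values were above the LPS and AGE+LPS values for Rpl24. Rps28 and Rpl28, also close to the floor, were called in none of the 5 comparisons.

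The lists of genes around the ribosome begin with those that build it. Of 20 ribosome assembly factors, 0 rose and 7 fell in LPS vs Control (16.3% and 14.3% of genes), where 10 had an unadjusted p below 0.05 (41.4% of genes) and DESeq2 called 7 (26.9%). Their median log2FC was -0.63, against -0.04 for members. Dkc1, the pseudouridine synthase of ribosomal RNA, had 49.8 and 55.9 CPM in Control, 10.2 and 15.3 in LPS, 16.1 and 26.5 in AGE+LPS, and 3.90 and 7.60 in FruArg+LPS, and fell in LPS vs Control (-2.01 ± 0.26). Its libraries in the LPS-treated groups were all below Control. Polr1b, a subunit of RNA polymerase I, fell as well (-1.38 ± 0.25). The assembly factors had medians of 0.46 in AGE+LPS vs LPS and 0.09 in FruArg+LPS vs LPS, with 0 called by edgeR in both. At an unadjusted p below 0.05 these were 5 and 4 genes (17.8% and 12.8% of all genes), and DESeq2 called 1 and 0 (5.21% and 1.76%). The replicate block gave 12 higher and 1 lower in AGE+LPS vs LPS (19.3% and 21.0% of genes) and 3 of each in FruArg+LPS vs LPS (8.23% and 9.36%). In AGE+LPS vs Control 1 fell (9.25% of genes; median -0.17), and in FruArg+LPS vs Control 5 fell (9.59%; median -0.45). With the replicate block 11 fell in LPS vs Control, 5 in AGE+LPS vs Control and 9 in FruArg+LPS vs Control. The shares of all genes were 22.9%, 18.5% and 15.5%.

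Mitochondrial ribosomal proteins, which build the separate ribosome of mitochondria, had 4 of 77 higher and 15 lower in LPS vs Control (16.3% and 14.3% of genes), with a median of -0.25. Mrpl52 rose (1.45 ± 0.29), and Mrpl42 (-1.75 ± 0.25) and Mrpl12 (-1.70 ± 0.24) fell. For AGE+LPS vs LPS edgeR called 0, with 14 at an unadjusted p below 0.05 (17.8% of genes), 5 in DESeq2 (5.21%) and a median of 0.20, and the block gave 24 higher and 8 lower (19.3% and 21.0%). For FruArg+LPS vs LPS it called 0, with 9 at that p (12.8% of genes), 1 in DESeq2 (1.76%) and a median of 0.07, and the block gave 6 higher and 7 lower (8.23% and 9.36%). In AGE+LPS vs Control 2 were higher and 3 lower (10.5% and 9.25% of genes; median -0.11), and in FruArg+LPS vs Control 1 was higher and 10 lower (12.8% and 9.59%; median -0.21). With the block 8 were higher and 24 lower in LPS vs Control (24.9% and 22.9% of genes). The block gave 8 and 13 in AGE+LPS vs Control (20.2% and 18.5%), and 4 and 15 in FruArg+LPS vs Control (18.9% and 15.5%).

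Of 26 translation initiation factors, 5 were higher and 1 lower in LPS vs Control (16.3% and 14.3% of genes), with a median of 0.06 that turned to -0.36 with library size scaling, and with Eif6, which keeps 60S subunits from joining 40S subunits too early, at 1.35 ± 0.24. In AGE+LPS vs Control and FruArg+LPS vs Control 2 were higher (10.5% and 12.8% of genes). The replicate block gave 8 higher and 3 lower in LPS vs Control (24.9% and 22.9%). It gave 5 and 1 in AGE+LPS vs Control (20.2% and 18.5%), and 4 and 3 in FruArg+LPS vs Control (18.9% and 15.5%). Against LPS edgeR called 0, with 3 and 2 at an unadjusted p below 0.05 (17.8% and 12.8% of genes) and 1 in DESeq2 for each of AGE+LPS and FruArg+LPS (5.21% and 1.76%). With the replicate block 4 were higher and 6 lower in AGE+LPS vs LPS (19.3% and 21.0%), and 1 higher and 6 lower in FruArg+LPS vs LPS (8.23% and 9.36%). Of 15 genes of mTORC1 and S6 kinase signalling, Ddit4 and Eif4ebp1, both inhibitors in the pathway, rose and the mTOR-binding inhibitor Deptor fell in each comparison with Control, and no other gene of the list was called there (for LPS, 16.3% of genes higher and 14.3% lower). For LPS their log2FC was 1.72 ± 0.43, 0.86 ± 0.22 and -5.20 ± 0.53. The Eif4ebp1 calls were lost in all 3 comparisons without Control replicate 1 (0.87 for LPS) or Control replicate 2 (0.84 for LPS). In each comparison Eif4ebp1 was called in 12 of 15 alternatives, and its log2FC for LPS ranged from 0.444 to 1.06. Against LPS, 0 genes of that list were called by edgeR or DESeq2 and 0 had an unadjusted p below 0.05, but the replicate block gave 2 higher and 1 lower in AGE+LPS vs LPS (19.3% and 21.0% of genes) and 0 in FruArg+LPS vs LPS (17.6% in either direction). Of 19 elongation factors and other mRNAs with a terminal oligopyrimidine tract, edgeR called 1 in the 5 comparisons: Tpt1 rose in FruArg+LPS vs Control (1.66 ± 0.41). At an unadjusted p below 0.05 there were 1, 0, 1, 1 and 3 of these genes in the order in which the comparisons were introduced, against 41.4%, 17.8%, 12.8%, 31.6% and 35.8% of all genes. DESeq2 called 0, 0, 1, 0 and 2 (26.9%, 5.21%, 1.76%, 17.9% and 21.4% of genes), and the replicate block gave 1, 3, 1, 2 and 4 calls (47.8%, 40.3%, 17.6%, 38.8% and 34.4% of genes).

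The 5 listed ribosomal proteins or paralogs outside the symbol rule gave 0 calls by edgeR without the block or by DESeq2 in the 5 comparisons, and with the block 1, 2, 3, 0 and 2 calls, against the shares of genes just given. In the same order, 0, 0, 2, 0 and 1 had an unadjusted p below 0.05, and the medians were -0.17, 0.29, 0.20, 0.09 (-0.15 with library size scaling) and 0.41. Fau, the precursor of Rps30, had 32.04 and 20.7 CPM in Control, 25.9 and 18.7 in LPS, 35.1 and 19.2 in AGE+LPS, and 81.8 and 25.5 in FruArg+LPS, with replicate 2 lower in each group. Pseudogenes of ribosomal proteins, of which 57 of 268 were tested in LPS vs Control, had 1 lower there (14.3% of genes) and a median of -0.00. For AGE+LPS vs LPS (52 tested) and FruArg+LPS vs LPS (48 tested) edgeR called 0, with 2 and 5 at an unadjusted p below 0.05 (17.8% and 12.8% of genes) and 0 and 1 in DESeq2 (5.21% and 1.76%). With the block these pairs had 4 higher and 6 lower (19.3% and 21.0% of genes), and 6 higher and 4 lower (8.23% and 9.36%). In AGE+LPS vs Control (54 tested) 2 were lower (9.25% of genes), and in FruArg+LPS vs Control (48 tested) 1 was higher and 1 lower (12.8% and 9.59%). With the block 1 was higher and 3 lower in LPS vs Control (24.9% and 22.9% of genes). The block gave 0 and 3 in AGE+LPS vs Control (20.2% and 18.5%), and 3 and 5 in FruArg+LPS vs Control (18.9% and 15.5%).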

How the data were processed

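Poly(A) RNA of 8 libraries was analysed from raw counts per gene, which the authors deposited after TopHat2 alignment to GRCm38 and featureCounts. Pairs of groups were fitted in edgeR 4.0.16 (R 4.3.3, limma 3.58.1) with filterByExpr, TMM scaling and the quasi-likelihood F-test, with Benjamini-Hochberg adjustment over all genes tested. A call is an edgeR adjusted p below 0.05. The fits were tested on simulated data, whose results are not reported here. Annotation was GENCODE M21. Members and lists were chosen with earlier results of these data known. Named members are the 3 largest and 3 smallest log2FC per comparison among members with a mean of at least 5 CPM, the 5 highest and 5 lowest levels, those not tested, and those of the lists. Of other lists at most 2 genes per direction are named. Replicate number marks the lane in the labels, so it pairs libraries: deviations of same-numbered libraries correlated with r from 0.264 to 0.649 over 12873 genes. Alternatives were RLE factors, library size scaling, DESeq2 1.42.0, other filters, 4 groups in one fit, the replicate block, GC and length trends, and leaving out 1 library, where the lone sample is assumed to vary like the others. Protein sequences and rRNA were not analysed here. Some genes that the naming rule takes are not reported here.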

Additional observations from a re-analysis of the deposited data

How the results depend on the processing

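Each comparison was run under 15 alternatives. Of 8 member calls, that of Rpl39l in LPS vs Control passed in every alternative that tested it. Shares of all genes called follow in brackets. The number of members called in LPS vs Control, 5 (30.6%), became 17 (38.3%) with library size scaling, 2 (26.9%) with DESeq2, 15 (47.8%) with the replicate block, 11 (40.5%) with the GC trend, 20 (50.1%) with GC trend and block, 19 (51.04%) with length trend and block, and 2 to 15 (18.6% to 34.6%) leaving out 1 library. For AGE+LPS vs LPS, 0 (0.796%) became 1 with DESeq2 (5.21%), at least 1 count (5.41%) or one fit of 4 groups (3.33%), 28 (40.3%) with the block, 4 (11.8%) with the GC trend, 30 (40.6%) with GC trend and block, 29 (40.5%) with length trend and block, and 0 to 4 (2.68% to 5.10%) leaving out 1 library, the non-zero counts being 3 and 4. For FruArg+LPS vs LPS, 0 (0%) became 3 (1.76%) with DESeq2, 12 (2.53%) with at least 1 count, 22 (17.6%) with the block, 21 with the block and GC trend (11.8%) or length trend (17.2%), and 0 to 17 (0.0408% to 11.8%) leaving out 1 library, with 1 the lowest above 0. For AGE+LPS vs Control, 0 (19.7%) became 1 with library size scaling (22.7%), at least 1 count (14.2%) or one fit (15.5%), 11 (38.8%) with the block, 3 (28.7%) with the GC trend, 16 (45.9%) with GC trend and block, 12 (39.5%) with length trend and block, and 0 to 14 (10.9% to 25.7%) leaving out 1 library, with 3 the lowest above 0. For FruArg+LPS vs Control, 3 (22.4%) became 13 (29.6%) with library size scaling, 8 (21.4%) with DESeq2, 12 (16.6%) with at least 1 count, 17 (34.4%) with the block, 7 (25.5%) with the GC trend, 14 (33.7%) with GC trend and block, 20 (37.04%) with length trend and block, and 2 to 33 (11.9% to 39.9%) leaving out 1 library, with 7 and 8 between. The block ended none of the 8 calls. The median log2FC of members became -0.47 (LPS vs Control), -0.26 (AGE+LPS vs Control) and -0.28 (FruArg+LPS vs Control) with library size scaling. Leaving out 1 library moved it to between -0.22 and 0.07 in LPS vs Control, -0.02 and 0.31 in FruArg+LPS vs LPS, -0.16 and 0.03 in AGE+LPS vs Control, and -0.01 and 0.20 in FruArg+LPS vs Control. Of counts on protein-coding genes, members took 1.91% in Control, 1.52% in LPS, 1.63% in AGE+LPS and 1.71% in FruArg+LPS, and 1.31% of the TMM effective size in Control. The sign changed with a call for Rps27rt in LPS vs Control without LPS replicate 2 (range -1.96 to 2.95 leaving out 1 library) and for Rps16 in AGE+LPS vs Control without AGE+LPS replicate 1 (range -0.79 to 1.16). Of 2532 results of single members under an alternative, 1956 kept side and sign, 394 passed where the reported fit did not, 21 lost a call and 159 changed sign uncalled. The cause was not tested. The members in this tally were those named or listed, and those called by edgeR, with the replicate block or by DESeq2. Part of the 394 was therefore set by that choice. Rps27rt and Rps16 differed between lanes in every group, and a fit without 1 library leaves a group in a single lane. Depth limits members near 3 counts.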
